A study of Mus musculus with 141 samples.

Results

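Expression of 8 transcription factor genes known for their part in the making of liver, lung and kidney was described across these organs and across strains of the Collaborative Cross (CC), a panel of recombinant inbred mice that mixes the genomes of a shared set of founder strains. The genes were Hnf4a, Foxa1, Foxa2, Foxa3, Nkx2-1, Pax2, Pax8 and Wt1. They were picked by symbol from the 24423 genes of each library, and all 8 were present. Whole liver, lung and kidney were taken from 1 male mouse of each of 47 CC strains, which gave 3 groups of 47 libraries of total RNA depleted of ribosomal RNA. All mice were adults of 8 to 12 weeks and had spent 6 hours of each weekday for 2 weeks in chambers with clean air, and all were given nembutal, an anaesthetic, at 100 mg/kg before they were bled. The labels name no engineered allele. With 1 animal per strain, a difference between strains cannot be told apart from a difference between single animals, and in whole organs fewer cells of a type cannot be told apart from less RNA per cell.

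Libraries held 1738046 to 42158454 counts, with a median of 9043226. Rn45s, the ribosomal RNA precursor, and Lars2, a mitochondrial leucine tRNA synthetase gene, took between 0.21 and 90.5% of the counts of a library, with medians of 43.2% in liver, 24.1% in lung and 32.3% in kidney. Levels are given as counts per 1e6 counts of the library after TMM scaling, the trimmed mean of M-values (TMM CPM), when 1 gene is compared between libraries, and as TPM, the share of transcripts on the same scale, which take transcript length into account, when genes are compared with each other. The liver library of strain CC033, with 90.3% of its counts in these 2 genes, had a TMM factor of 0.116, so its values rest on few counts. In 16 libraries (11 of liver, 1 of lung and 4 of kidney) the summed CPM of the markers of another tissue, without TMM, was over 5 times the median of their organ. That limit was set after the data were seen, and with a limit of 8 times there were 9 such libraries. Among them were the livers of CC006 (adrenal cortex) and CC068 (pancreas), and all 3 organs of CC010.

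Hnf4a encodes a nuclear receptor that holds together the transcription factor network of the hepatocyte and also acts in the proximal tubule of the kidney. Foxa1, Foxa2 and Foxa3 encode forkhead proteins that open chromatin in endoderm, the germ layer of both liver and lung epithelium. Nkx2-1 encodes the homeodomain factor of lung and thyroid epithelium, which drives surfactant genes. Pax2 and Pax8 encode paired-box factors of the nephric duct and nephron, and Wt1 encodes a zinc finger factor that podocytes of the adult glomerulus and mesothelium retain.

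Each factor was highest in the organ or organs it is known for, and several were also measured, at much lower levels, elsewhere. Foxa3 was the leading factor of liver at 52.0 ± 16.4 TPM (SD, n = 47), followed by Foxa1 at 10.4 ± 3.79 and Hnf4a at 5.88 ± 2.62 TPM. In lung the order was Foxa1 at 24.5 ± 7.64 TPM, Nkx2-1 at 3.50 ± 1.83 and Wt1 at 3.42 ± 1.52, and Nkx2-1 and Wt1 did not differ beyond their spread, since Wt1 was the higher of both in 21 strains. In kidney Pax8 led at 81.5 ± 21.1 TPM, before Hnf4a at 10.4 ± 3.96, Pax2 at 5.77 ± 2.08 and Wt1 at 4.27 ± 1.29. Neighbours in the kidney order crossed in 7 strains for Hnf4a and Pax2 and in 12 strains for Pax2 and Wt1. Foxa1 was above Foxa3 in 0 liver strains, and Hnf4a above Pax8 in 0 kidney strains. The TPM of Hnf4a, Foxa2 and Nkx2-1 come from 3, 3 and 2 annotated transcripts and those of the other 5 factors from 1 each, and genes with more than 1 transcript had a median above 1 TPM less often in each organ (17.8 against 43.3% in liver, 30.7 against 57.7% in lung and 24.5 against 50.8% in kidney). Among the genes above 1 TPM, those with more than 1 transcript also had lower levels. Their median was 3.2 against 13.0 TPM in liver, 3.3 against 21.6 in lung and 3.2 against 18.3 in kidney. What share these differences have in the order of the factors was not tested.

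**Figure D1:**
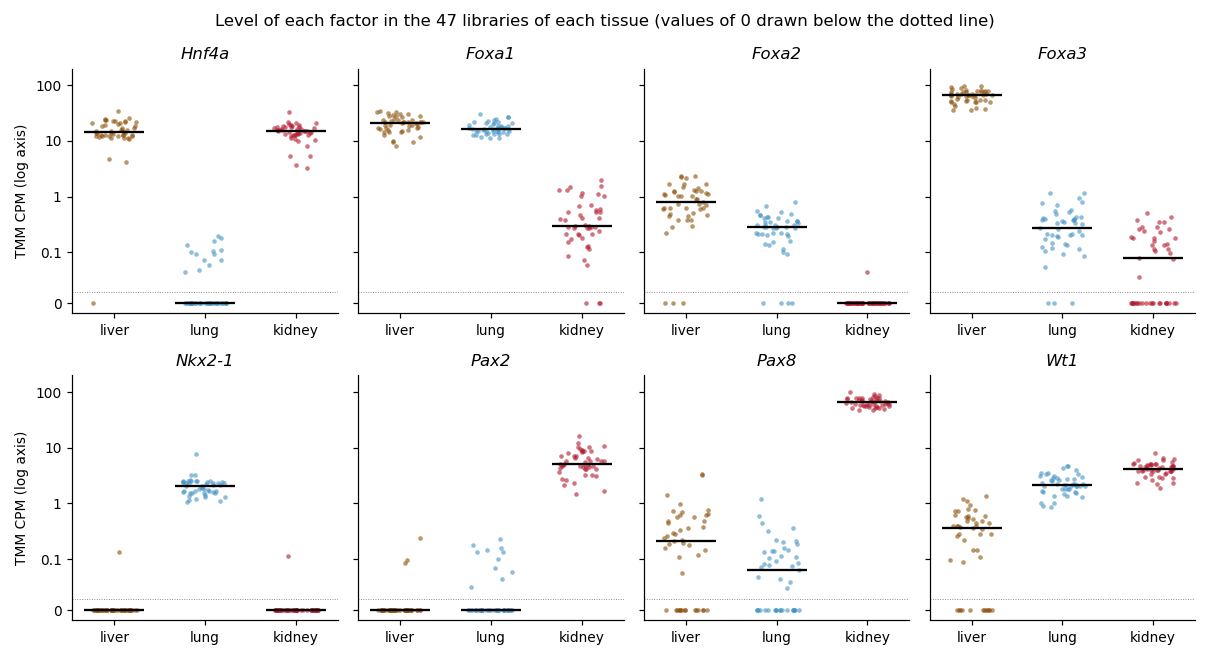
Level of each factor in the 47 libraries of liver, lung and kidney, as TMM CPM on a log axis, with values of 0 drawn below the dotted line. Points are libraries and black bars are medians; Foxa3, Pax2, Pax8 and Nkx2-1 are high in 1 organ each, Hnf4a in liver and kidney, Foxa1 in liver and lung, and Wt1 in kidney and lung.

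Organs were compared with limma-voom over 12127 genes, and strain was fitted as a block, since 1 mouse gave all 3 organs of a strain. A gene was called where the adjusted p (q) was 0.1 or less and the log2 fold change was 1 or more in size. Of the 8 factors, 7 passed the filter on low counts, and Foxa2 did not; pairs with both organs at the floor of 3 counts were left out, which left 6, 6 and 7 factors in the 3 comparisons. In liver against lung, Foxa3, Hnf4a and Pax8 were called higher in liver (3 factors, where 23.9% of all genes tested were called in that direction), and Nkx2-1 and Wt1 were higher in lung (2 factors, background 31%). In liver against kidney, Foxa1 and Foxa3 were higher in liver (2 factors, background 15.6%) and Pax2, Pax8 and Wt1 in kidney (3 factors, background 20.8%). In lung against kidney, Foxa1, Foxa3 and Nkx2-1 were higher in lung (3 factors, background 25.5%), and Hnf4a, Pax2 and Pax8 in kidney (3 factors, background 20.6%). Of these calls, Pax8 in liver against lung and Foxa3 in lung against kidney rest on the organ outside the comparison to pass the filter. Pax8 was above 1 TMM CPM in 3 livers, 1 lung and 47 kidneys, and Foxa3 in 2 lungs, 0 kidneys and 47 livers. With only the 2 organs compared in the fit, both failed the filter and were not tested. Nkx2-1 was above 1 TMM CPM in 47 lungs, 0 livers and 0 kidneys, and Pax2 in 47 kidneys, 0 livers and 0 lungs. Like Foxa3 and Pax8, they passed the filter through 1 organ only. Calls of these factors as higher in that organ are not independent of the filter, and the shares beside them are a description. Ranges of the 47 libraries of each organ did not overlap for 2 factors between liver and lung (14% of genes had all livers above all lungs, and 12.1% the reverse), for 5 factors between liver and kidney (6.28% and 6.92%), and for 5 between lung and kidney (10.1% and 12.5%). The scaling of the libraries shifts all of these values together. On total counts without TMM the median log2 fold change of all genes was -1.44 for liver against lung, -0.95 for liver against kidney and 0.46 for lung against kidney, where it was -0.06, -0.0034 and 0.04 with TMM. The calls over all genes split accordingly, with 2901 higher in liver and 3763 in lung with TMM and 1186 and 7474 on total counts.

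**Figure D2:**
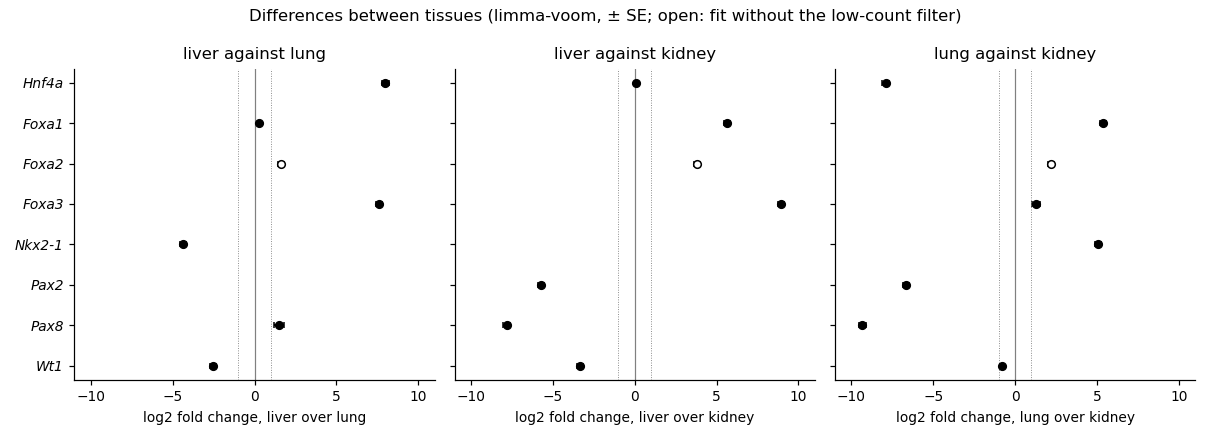
Log2 fold change of each factor between organs in limma-voom, with the standard error as a bar, and dotted lines at the threshold of 1. Filled points are from the fit with the filter on low counts and the open points of Foxa2 from the fit without it; Pax2 in liver against lung and Nkx2-1 in liver against kidney are left out because both organs were at the detection floor.

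Hnf4a (chr2:163332544-163398646, plus strand, NCBIM37) was measured at 15.98 ± 6.16 TMM CPM (SD, n = 47) in liver and 14.8 ± 5.12 in kidney, and was near the limit of detection in lung. The livers had a median of 14.6 and lay between 0 and 35.0, the kidneys a median of 14.9 and lay between 3.27 and 33.2, while no lung library held more than 3 counts of it. The 20 counts of the lung libraries together, against 4994 in liver and 6944 in kidney, put the pooled rate in liver 536 times (95% exact interval 347 to 879) and in kidney 485 times (314 to 794) above that in lung. Such intervals cover counting error only. In limma-voom the log2 fold change was 7.97 ± 0.21 (SE, q = 2.5e-58) for liver against lung and -7.89 ± 0.21 (q = 3.1e-58) for lung against kidney. Liver and kidney differed by 0.08 ± 0.082 (q = 0.34), with 25 strains higher in liver and 22 in kidney. The sign of this small difference turned on other scalings, to -0.87 on total counts, where the median of all genes lay at -0.95. On the TPM scale, kidney was the higher organ in 40 of 47 strains. All genes shifted that way too, with a median of -0.94 for liver against kidney on log2(TPM + 0.1). Hnf4aos, the gene annotated on the opposite strand of Hnf4a, was also lowest in lung, but its mean was higher in kidney than in liver. It was at 4.57 ± 2.34 TMM CPM in liver, 6.33 ± 2.65 in kidney and 0.0317 ± 0.0731 in lung. Since the sources used here do not say whether counting used strand, reads of the pair cannot be told apart.

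The spread of Hnf4a between strains was wider than that of most genes. Its biological coefficient of variation, the spread between strains beyond counting error, was 0.386 in liver (percentile 79.3 of 9700 genes) and 0.366 in kidney (percentile 82.7 of 10221 genes). The value fitted for genes of its abundance was 0.354 in liver and 0.288 in kidney, so in liver it stood little above such genes. The same 3 strains, picked after their values were seen, had the lowest Hnf4a of all livers and were 3 of the 4 lowest kidneys. Strain CC036 had 0 TMM CPM in liver, where its library is the shallowest with 1738046 counts, and 3.27 in kidney. Strain CC062 had 4.16 in liver and 3.63 in kidney, and CC038 had 4.83 in liver and 5.40 in kidney. The next lowest liver was at 10.9 (CC059), and the other low kidney, CC020 at 5.29, had a liver value of 18.6. Hnf4aos was not at its lowest in these strains, with 2.22 in liver and 8.64 in kidney of CC036. The liver value of CC036 is 3 counts, at the floor, and is not read as a difference from the 0 of Hnf4a. Across all 47 strains the levels in liver and kidney gave r = 0.20 on ranks turned into normal scores (permutation p = 0.174, q = 0.357 over 8483 genes) and rho = 0.10 (permutation p = 0.482). On log2 values, which keep the distance of the low strains, r was 0.54 (permutation p = 6.7e-04, q = 0.0066). It was 0.35 without the 2 strains whose livers lay farthest from the liver median, CC036 and CC004, the highest liver. The low strains CC062 and CC038 were still included in that value.

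Foxa1 (chr12:58641618-58647108, minus strand) was shared by liver and lung. The livers lay between 8.14 and 34.0 TMM CPM with a median of 21.2, the lungs between 11.3 and 29.9 with a median of 16.5 and the kidneys between 0 and 1.97 with a median of 0.291, so that every liver and every lung lay above every kidney. In limma-voom the log2 fold change against kidney was 5.64 ± 0.19 (q = 1.2e-49) for liver and 5.37 ± 0.19 (q = 1.3e-48) for lung. Liver against lung gave 0.27 ± 0.078 (q = 9.1e-04), under the fold threshold, with liver higher in 30 of 47 strains. This difference had the opposite sign on other scalings, at -1.15 on total counts, where the median of all genes lay at -1.44, and -0.04 with DESeq2, and on total counts it was called higher in lung. On the TPM scale, lung was higher in 44 strains, where the median of all genes for liver against lung was -1.52 on log2(TPM + 0.1). Levels in the livers and lungs of the same mice gave r = 0.11 (permutation p = 0.46, q = 0.712 over 8517 genes) and rho = 0.11 (permutation p = 0.48).

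Foxa2 (chr2:147868613-147872705, minus strand) was the scarcest of the forkhead group and failed the filter, with 306 counts over all livers, 197 over all lungs and 1 over all kidneys. It reached at most 2.36 TMM CPM in liver (median 0.787) and 0.797 in lung (median 0.288). A fit without the filter, over 22652 genes, gave log2 fold changes of 1.61 ± 0.18 (limma-voom q = 3.2e-14) for liver against lung, 3.82 ± 0.18 (q = 1.1e-37) for liver against kidney and 2.21 ± 0.18 (q = 1.3e-20) for lung against kidney, where 30.8%, 10.9% and 19.8% of genes were called in those directions. The fits against kidney depend on the prior count, since kidney rests on 1 count, and the pooled rate in liver was 471 times (95% exact interval 83.8 to 18649) that in kidney. Liver exceeded lung in 40 strains by TMM CPM and in 25 by TPM, so for this pair the order depends on the scale.

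Foxa3 (chr7:19598631-19608887, minus strand) was high in liver only. The livers lay between 35.4 and 97.5 TMM CPM with a median of 66.9, the lungs reached at most 1.18 (median 0.276) and the kidneys 0.511 (median 0.0774), and no liver overlapped a library of the other organs. In limma-voom the log2 fold change of liver was 7.61 ± 0.16 (q = 1.5e-67) against lung and 8.91 ± 0.19 (q = 2.4e-66) against kidney. The difference between lung and kidney, 1.30 ± 0.24 (q = 8.5e-07), rests on 225 against 49 counts, a pooled ratio of 3.29 (95% exact interval 2.40 to 4.58), and was under the fold threshold on log2(TPM + 1).

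The promoters of Foxa1 (chr12:57546112-57546361, minus strand) and Foxa3 (chr7:19023540-19023789, minus strand; both 250 bases from RefSeq, GRCm38.p6) are shown side by side because these related genes differed in lung, where the former was high and the latter near the floor. Capitals mark, in Foxa1, a CCAAT box and the FOXA motif TGTTTAC on the other strand at -141, and, in Foxa3, the WT1 motif GCGTGGG on the other strand at -216, a CCAAT box at -108 and a TATA box (TATAAA) at -36.
Foxa1: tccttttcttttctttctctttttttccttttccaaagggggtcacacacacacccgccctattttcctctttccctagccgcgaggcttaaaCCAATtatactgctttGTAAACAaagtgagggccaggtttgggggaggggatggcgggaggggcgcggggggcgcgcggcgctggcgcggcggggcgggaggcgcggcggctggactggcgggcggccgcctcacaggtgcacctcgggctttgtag
Foxa3: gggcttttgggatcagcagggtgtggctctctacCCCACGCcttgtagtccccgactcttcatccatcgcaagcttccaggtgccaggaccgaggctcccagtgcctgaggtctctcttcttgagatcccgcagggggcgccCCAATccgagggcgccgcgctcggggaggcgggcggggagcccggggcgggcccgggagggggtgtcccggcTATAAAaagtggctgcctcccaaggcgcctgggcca
TGTTTAC is in 3.17% of the 32851 promoters of this length, GCGTGGG in 4.30%, TATAAA in 12.4% and CCAAT in 33.8%. These are matches of letters only, and no binding was measured.

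In each list below the genes with the largest differences were named by rule, and single genes that went another way or were at 0 were named after their values were seen. The shares of all genes called in each direction, given above for the factors, are the background of these counts too. Of 19 other factors of the hepatocyte network, 13 were tested, and 11 of them were higher in liver than in lung, 2 lower (median log2 fold change 5.41, where all genes had -0.06). Against kidney, 11 were higher in liver and 1 lower (median 2.73). The largest differences were those of Onecut2 (264.7 ± 58.4 TMM CPM in liver, 0.357 ± 0.281 in lung), Creb3l3 (367 ± 77.0 and 0.592 ± 0.636) and Onecut1 (35.2 ± 25.9 and 0.0334 ± 0.0747), which encode a pair of onecut factors of liver development and a liver-enriched bZIP factor. Hnf4g, the paralog of Hnf4a, was the 1 factor lower in liver than in kidney (log2 fold change -5.07). The members lower in liver than in lung were Gata6 (-2.13) and Tbx3 (-1.24). Of 17 target genes of HNF4A and FOXA factors, 17 were higher in liver than in lung (median 9.44) and 15 than in kidney (median 8.42). Ttr, the thyroxine carrier, reached a log2 fold change of 11.01 ± 0.43 (limma-voom q = 3.7e-44) against lung, and Tat, tyrosine aminotransferase, 11.37 ± 0.26 (q = 3.2e-64) against kidney. Those not called against kidney were the gluconeogenic genes Pck1 (-0.13) and G6pc (0.98). Cebpa and Cebpb, known as hepatocyte factors, were at 0.0277 ± 0.079 and 0 TMM CPM in liver, which is next to no counts. Both genes are known to be well expressed in liver, so such values may be failed estimates of the counting and are not read as absence, which was not tested.

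**Figure D3:**
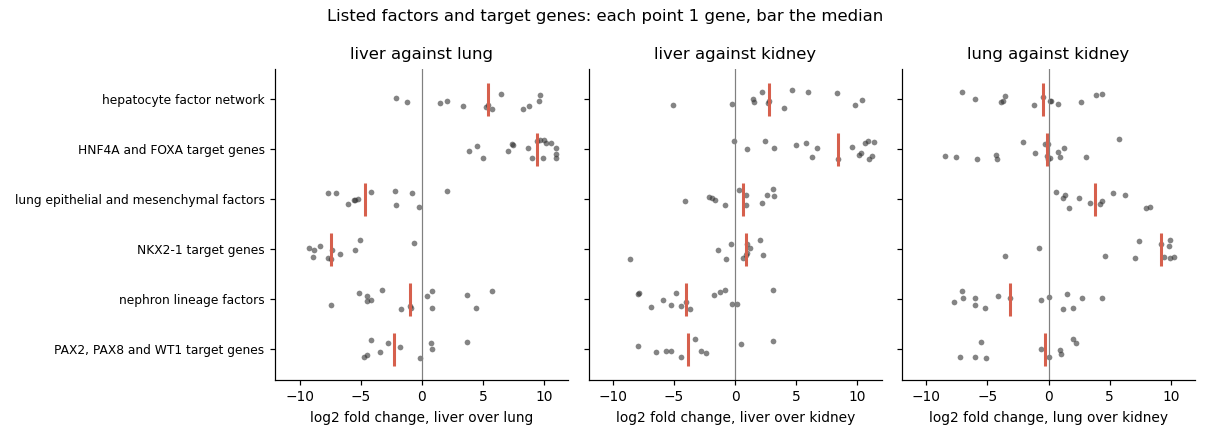
Log2 fold changes between organs (limma-voom) for the listed factors and target genes of liver, lung and kidney; each point is 1 gene and the red bar is the median of its list. Medians of the hepatocyte lists lie to the right of 0 in both comparisons of liver, those of the lung lists to the left in liver against lung and to the right in lung against kidney, and that of the nephron factors to the left in both comparisons with kidney. That of the PAX2, PAX8 and WT1 targets lies to the left in liver against kidney (-3.85) and near 0 in lung against kidney (-0.29).

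Nkx2-1 (chr12:57632922-57637895, minus strand) was above 3 counts in libraries of lung only. Its TMM CPM there ran from 1.08 to 7.76 (median 2.02), while 1 count was found in all livers and 1 in all kidneys. The pooled rate in lung was 639 times (95% exact interval 115 to 25268) that of liver and 983 times (176 to 38861) that of kidney. The fitted log2 fold changes, -4.37 ± 0.16 (limma-voom q = 5.3e-47) for liver against lung and 5.06 ± 0.16 (q = 2.2e-52) for lung against kidney, depend on the prior count and are smaller than these ratios. Liver and kidney were both at the floor and are not compared. Lung CC037 stood apart at 7.76 from 58 counts, with the next highest lung, CC005, at 3.28, and the spread over strains was 0.312 as a coefficient of variation (percentile 75.4 of 10979 genes). That spread was below the 0.398 fitted for genes of its abundance. Markers of thyroid, the other adult organ known for Nkx2-1, summed to at most 13.8 TMM CPM in a lung, with a median of 4.01, and the defining genes Slc5a5 and Foxe1 were at 3 counts or fewer in most of them.

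The 250 bases before the start of Nkx2-1 (chr12:56536909-56537158, minus strand, GRCm38.p6, from RefSeq) are shown as a promoter of a gene that was at the floor outside lung.
Nkx2-1: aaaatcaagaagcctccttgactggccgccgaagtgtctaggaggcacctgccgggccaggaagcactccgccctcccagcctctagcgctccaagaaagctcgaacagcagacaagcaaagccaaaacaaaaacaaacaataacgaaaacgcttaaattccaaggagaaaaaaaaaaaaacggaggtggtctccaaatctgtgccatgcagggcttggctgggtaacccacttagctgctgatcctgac
None of the motifs named here, searched on both strands, is in this window. Beside the FOXA motif TGTTTAC, the WT1 motif, the TATA box and the CCAAT box, these were a second FOXA form, spelled TGTTTGC and held by 4.30% of promoters, and an HNF4A motif, spelled CAAAGTCC and held by 393 of the 32851 promoters.

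Of 20 other lung epithelial and mesenchymal factors, 12 were tested, and 9 of them were higher in lung than in liver with 1 lower, while 11 were higher in lung than in kidney (median log2 fold change 3.77 against kidney). Tbx5, a T-box factor of lung mesenchyme, was at 29.2 ± 6.79 TMM CPM in lung and 0.0759 ± 0.115 in liver, Foxj1, the factor of ciliated cells, at 31.8 ± 10.2 and 0.224 ± 0.319, and Foxf1, a mesenchymal forkhead factor, at 86.2 ± 18.2 in lung and 0.313 ± 0.334 in kidney. Sox9 was the member lower in lung than in liver (log2 fold change of liver against lung 2.04). Of 13 target genes of NKX2-1, 11 were tested, with 10 higher in lung than in liver and 9 higher than in kidney. Scgb1a1, the club cell secretoglobin, differed by -9.25 ± 0.21 (limma-voom q = 3.4e-65) for liver against lung and 10.2 ± 0.23 (q = 9.5e-66) for lung against kidney, and the surfactant gene Sftpc by -8.90 ± 0.20 (q = 3.1e-65) for liver against lung. Napsa, an aspartic protease, was higher in kidney than in lung (log2 fold change of lung against kidney -3.53). Abca3, the lipid transporter of lamellar bodies, differed by -0.66 between liver and lung and -0.75 between lung and kidney and was not called. Cldn18, known to be well expressed in lung, was listed at 0 in all 3 organs, a value that may also be a failed estimate.

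Pax8 (chr2:24276071-24331119, minus strand) had the highest TPM of the 8 factors in kidney and the smallest spread across strains of the 4 that were high there. Its TMM CPM in kidney ran from 47.8 to 101 (median 66.6), and its coefficient of variation was 0.177 (percentile 33.6 of 10221 genes). Against 32511 counts in kidney there were 92 in liver and 62 in lung, and in limma-voom the log2 fold change was -7.82 ± 0.21 (q = 3.6e-57) for liver against kidney and -9.34 ± 0.22 (q = 1.4e-63) for lung against kidney. Every kidney lay above every other library. Liver exceeded lung by 1.52 ± 0.30 (q = 2.5e-06), on low levels of 0.415 ± 0.700 and 0.117 ± 0.205 TMM CPM, and the call was lost on total counts (0.13, q = 0.617) and on log2(TPM + 1) (0.05, q = 0.461). The highest livers were CC033 at 3.40 from 2 counts and CC035 at 3.31 from 14 counts, and these also held the highest sums of proximal tubule markers, 1065 and 1121 TMM CPM, where the median of 44 other livers was 40.2. Without these and CC036 the mean Pax8 of the livers was 0.274 ± 0.314 (n = 44). The part of these markers in the result was not tested.

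The Pax8 promoter (chr2:24475600-24475849, minus strand, GRCm38.p6, 250 bases from RefSeq) is shown as that of the leading factor of kidney, with its CCAAT box at -57 in capitals.
Pax8: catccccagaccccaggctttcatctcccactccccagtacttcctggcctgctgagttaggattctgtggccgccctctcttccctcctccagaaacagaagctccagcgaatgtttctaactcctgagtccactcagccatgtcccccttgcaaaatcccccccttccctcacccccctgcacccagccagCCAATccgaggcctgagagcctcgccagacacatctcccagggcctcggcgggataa
It holds none of the other motifs named here.

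Pax2 (chr19:44830539-44912758, plus strand) was also a kidney gene, with a wider spread between strains than Pax8 on the TMM scale. TMM CPM in kidney ran from 1.46 to 16.2 (median 5.18), and its coefficient of variation of 0.456 was at percentile 89.7. The value fitted for genes of its abundance was 0.362. On the TPM scale, where Pax8 ran from 34.6 to 124 in kidney, Pax2 ran from 1.93 to 10.3, so the contrast was smaller there. The livers together held 3 counts and the lungs 14, against 2581 in kidney, which put the pooled rate in kidney 559 times (95% exact interval 191 to 2714) above liver and 257 times (153 to 472) above lung. The fitted log2 fold changes were -5.76 ± 0.18 (limma-voom q = 2.1e-51) for liver against kidney and -6.64 ± 0.18 (q = 5.3e-57) for lung against kidney, and no library overlapped. Liver and lung were both at the floor. Beside this spread, Pax2 in kidney went with the share of counts in Rn45s and Lars2 (r = 0.78 over 47 libraries, percentile 99.9 of 10221 genes, given as a description). The 2 lowest kidneys, CC001 at 1.46 and CC061 at 1.68, had shares of 0.206 and 4.55%, and the 2 highest, CC033 at 16.2 and CC041 at 12.1, shares of 79.6 and 67.8%. The part of this share in the spread was not tested further than by taking it into the fits below.

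Wt1 (chr2:104966686-105013773, plus strand) was measured in kidney, lung and, at a low level, liver. The kidneys lay between 1.87 and 8.02 TMM CPM with a median of 4.15, the lungs between 0.865 and 4.77 with a median of 2.18, and the livers reached at most 1.35 (median 0.366). In limma-voom, liver was below lung (-2.53 ± 0.19, q = 3.0e-23) and below kidney (-3.36 ± 0.19, q = 6.4e-32), in 47 of 47 strains each, and liver and lung ranges overlapped while liver and kidney did not. Lung against kidney gave -0.83 ± 0.11 (q = 1.4e-10), under the fold threshold, with lung lower in 42 of 47 strains by TMM CPM and 33 by TPM. Beside the level in lung, mesothelial markers, of a cell layer that retains Wt1, summed to between 52.6 and 178 TMM CPM in lung, 0.663 and 14.4 in liver and 3.03 and 16.5 in kidney, and no marker of the list was at 3 counts or fewer in most lungs. Their part in the lung level was not tested. Wt1os, on the opposite strand, was at 0.506 ± 0.397 in kidney, 0.131 ± 0.138 in lung and 0.0266 ± 0.107 in liver, and cannot be told apart from Wt1 if counting ignored strand.

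Of 23 other factors of the nephron lineage, 15 were tested, and 11 of them were higher in kidney than in liver with 1 lower, while 8 were higher in kidney than in lung and 5 lower. Pou3f3 (39.0 ± 9.70 TMM CPM in kidney, 0.193 ± 0.549 in liver), Sim1 (36.4 ± 10.2 and 0.186 ± 0.524) and Emx2 (13.96 ± 3.18 and 0.0406 ± 0.111), factors of tubule segments and of the nephric duct, differed most. Among those higher in lung than in kidney were Osr1, Tcf21, Irx1 and Irx2, which are also known from mesenchyme or epithelium of the lung. Of 12 target genes of PAX2, PAX8 and WT1, 10 were tested, with 8 higher in kidney than in liver and 1 lower, and 4 higher in kidney than in lung and 3 lower. The median was -3.85 for liver against kidney but only -0.29 for lung against kidney, where all genes had 0.04. As a set, these targets were thus not set apart between lung and kidney. The 3 higher in lung were Wnt4, the signal of nephron induction, Synpo, an actin-bound podocyte protein, and Nes, an intermediate filament gene. Nphs1, a gene of the podocyte slit diaphragm, was at 18.9 ± 5.54 TMM CPM in kidney and 0.197 ± 0.316 in liver. Slc14a2, a urea transporter of the medulla, was at 6.76 ± 7.40 in kidney. Ptpro, a phosphatase known from podocytes, was listed at 0 in all 3 organs, again a value that may be a failed estimate.

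Within kidney the 4 factors were positively related across strains on the TMM scale. Over 12 pairs of factors above 1 CPM in at least 50% of the libraries of an organ, adjusted over these 12 pairs, 7 pairs had q of 0.1 or less, and the 6 possible pairs of kidney were among them. The relation was r = 0.49 for Pax2 and Pax8 (permutation p = 4.8e-04, q = 0.0033; rho = 0.44, permutation p = 0.0021) and r = 0.49 for Pax2 and Wt1 (permutation p = 5.5e-04, q = 0.0033; rho = 0.46, permutation p = 0.0012). For Hnf4a it was 0.42 with Pax2 (permutation p = 0.0034, q = 0.0135; rho = 0.41, permutation p = 0.0048), 0.41 with Pax8 (p = 0.0046, q = 0.0138; rho = 0.43, p = 0.0027) and 0.34 with Wt1 (p = 0.0178, q = 0.0305; rho = 0.29, p = 0.0473), by permutation. Pax8 with Wt1 gave 0.37 (permutation p = 0.0103, q = 0.0207; rho = 0.32, permutation p = 0.0268). Among the r of all 10221 kidney genes with the same factor, the 6 values lay at percentiles 93.4 to 99.4. Without the 2 strains farthest from the median they ran from 0.29 to 0.47. On total counts without TMM this standing turned for Pax2. Its r with Pax8 was 0.32 where the median of all genes was 0.73 (percentile 1.97), and its r with Wt1 was 0.35 where the median was 0.63 (percentile 4.54), so relative to other genes these pairs depend on the scaling. As a description, r with the share of Rn45s and Lars2 was 0.78 for Pax2, 0.35 for Pax8, 0.34 for Wt1 and 0.25 for Hnf4a. With that share as a covariate, an alternative added after seeing the data, the 6 values fell to between 0.28 and 0.38 and q ran from 0.0437 to 0.0971. On rho with the covariate, Hnf4a with Wt1 and Pax8 with Wt1 were above 0.1 (rho = 0.24, permutation q = 0.189 for each). The q of rho for the other pairs ran from 0.0519 to 0.068. On log2 values Hnf4a with Wt1 was past 0.1 (r = 0.25, q = 0.143). In lung, Foxa1 and Nkx2-1 gave r = 0.38 (permutation p = 0.0097, q = 0.0207; rho = 0.38, permutation p = 0.0105), or 0.28 (q = 0.0971) with the covariate, where r with the share itself was 0.48 and 0.30. The rho of this lung pair with the covariate was 0.28, above the threshold (permutation q = 0.124). The 3 pairs of liver gave r of 0.13 for Hnf4a and Foxa1, -0.02 for Hnf4a and Foxa3 and 0.06 for Foxa1 and Foxa3, with q of 0.448 or more.

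**Figure D4:**
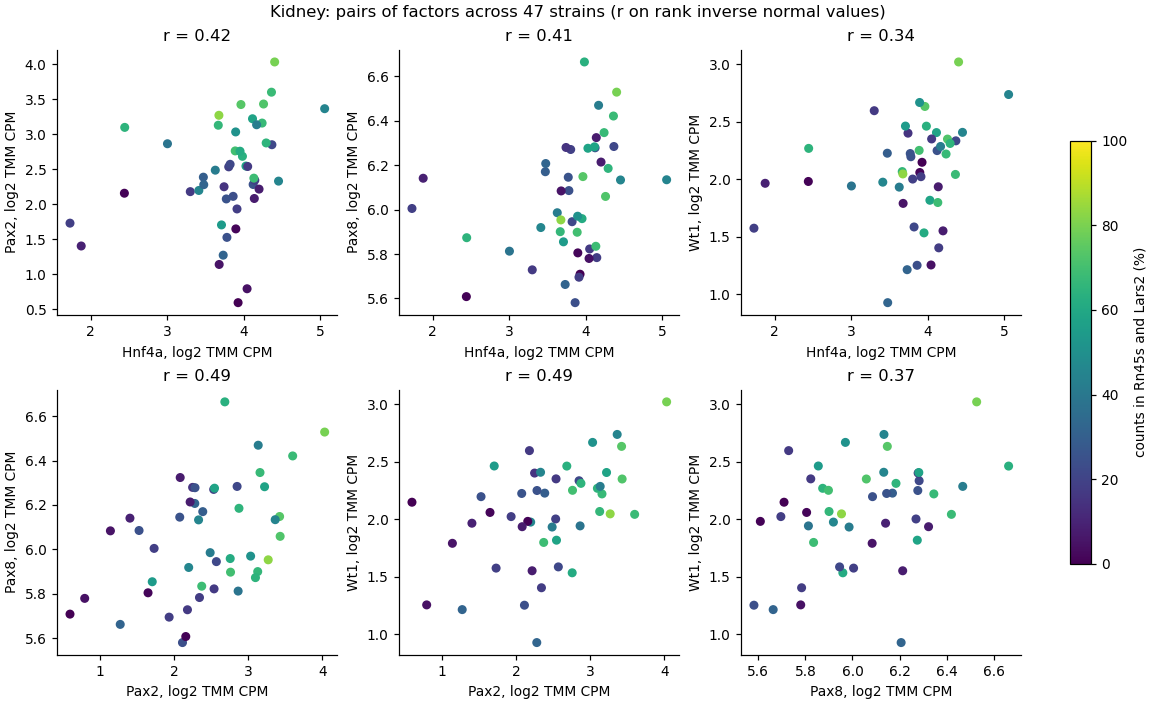
The 6 pairs of kidney factors across 47 strains, as log2 TMM CPM on both axes, with the share of counts in Rn45s and Lars2 as colour and r on rank inverse normal values above each panel. Points rise together in each panel, and libraries with a high share lie toward high Pax2.

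Relations of the factors with cell type markers of the same organ were also tested. Over 18 relations of a factor with the mean score of a marker list, adjusted over the 18, only Wt1 with 4 podocyte markers (Nphs1, Podxl and Synpo among them) in kidney reached q of 0.1 or less, at r = 0.41 (permutation p = 0.0046, q = 0.0824; rho = 0.35, permutation p = 0.0155). It was 0.38 without the 2 strains farthest from the median, and q passed 0.1 with the share of Rn45s and Lars2 as a covariate (r = 0.35, q = 0.111), without CC032 and CC042 (0.40, q = 0.109) and without the 1 kidney over the limit of 8 times (0.40, q = 0.101). Foxa3 with hepatocyte markers gave r = 0.31 (permutation p = 0.0338, q = 0.203; rho = 0.35), Pax2 with collecting duct markers 0.33 (permutation p = 0.0252, q = 0.203; rho = 0.29) and Nkx2-1 with alveolar type 2 markers 0.23 (permutation p = 0.12, q = 0.403; rho = 0.32). With the covariate, Foxa3 with hepatocyte markers gave r = 0.39 (permutation p = 0.0078, q = 0.111) and rho = 0.41 (permutation p = 0.0045, q = 0.0406), and Nkx2-1 with alveolar type 2 markers r = 0.34 (permutation p = 0.0184, q = 0.111) and rho = 0.43 (permutation p = 0.0030, q = 0.0406), so both were past the threshold on rho and not on r. Hnf4a gave -0.00178 with proximal tubule markers in kidney and 0.03 with hepatocyte markers in liver.

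Wt1 in lung and Wt1 in kidney of the same mice went in opposite directions, at r = -0.47 (permutation p = 6.7e-04, q = 0.0105 over 10057 genes) and rho = -0.38 (permutation p = 0.0081). Negative relations of this kind were called for 0.438% of all genes and positive ones for 17.1%. It was -0.35 without the 2 strains farthest from the median of lung. Strains CC055 and CC039 had the lowest kidneys, at 1.87 and 2.27 TMM CPM, and the highest lungs, at 4.63 and 4.77, while CC033 had the highest kidney at 8.02 and a lung of 0.894. The relation kept its sign under every alternative run and its call with the share of Rn45s and Lars2 as a covariate (-0.43, q = 0.0261). It lost the call on TPM without TMM (-0.19, q = 0.617) and without the 4 strains whose lung or kidney was high in markers of another tissue (-0.36, q = 0.117), CC039 among them. With the limit of 8 times, which left out 1 strain, it was -0.45 (q = 0.0201).

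**Figure D5:**
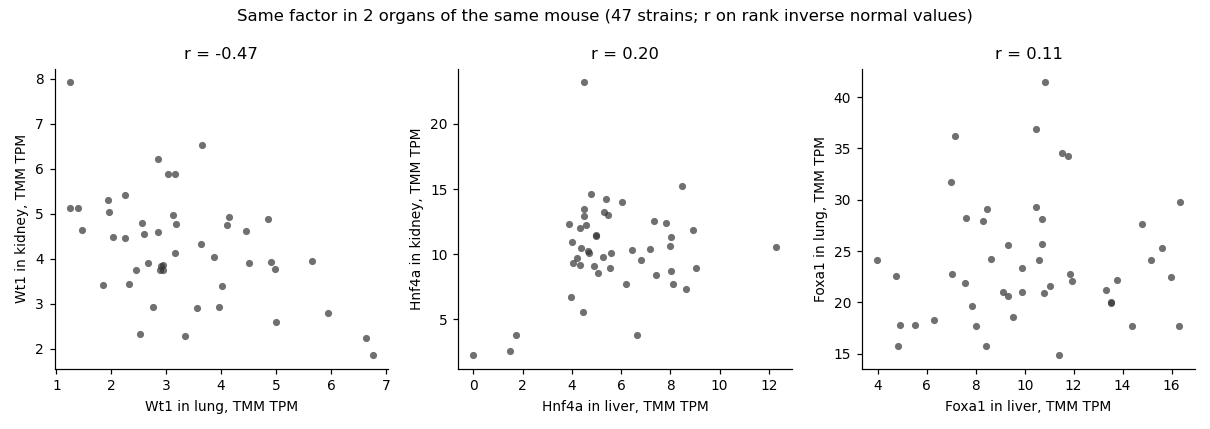
TMM-scaled TPM of a factor in 2 organs of the same mouse, each point 1 of 47 strains, for Wt1 in lung and kidney, Hnf4a in liver and kidney and Foxa1 in liver and lung. Wt1 falls in kidney as it rises in lung (r = -0.47), 3 strains are low for Hnf4a in both organs (r = 0.20), and Foxa1 shows no relation past the threshold (r = 0.11).

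Genes with the pattern across strains most like that of a factor, by r of rank inverse normal log2 CPM over the 47 libraries of the organ where the factor is highest, are given as a description. For Pax2 in kidney they were Prr12 (r = 0.91), Atn1 (0.90), Setd1b (0.90), Iqsec1 (0.90) and Sipa1l3 (0.88). For Pax8 they were led by Tnrc6c (0.70) and for Wt1 by Thnsl2 (0.65). In liver they were led by Lrrc8a for Hnf4a (0.60), Phlda1 for Foxa1 (0.62), B4galt1 for Foxa2 (0.49) and Hspa8 for Foxa3 (0.57), and in lung by Tnrc18 for Nkx2-1 (0.71). In the other organ where they are high, Fbxo7 led for Hnf4a in kidney (0.64) and Creb3l1 for Foxa1 in lung (0.71). These points share library, depth and the share of Rn45s and Lars2, with which Pax2 itself gave 0.78.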

How the data were processed

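RNA of liver, lung and kidney was measured in 47 strains, and groups were taken from the sample labels. The authors aligned reads with STAR 2.5.3a to genomes of mm9 edited for each strain and quantified RefSeq genes with RSEM. They deposited, for each gene, expected counts, which keep the depth of the library, and TPM and FPKM, which are scaled to length and total. FPKM was not analysed here. Uniquely aligned reads were counted, and whether counting used strand is not given in the sources used here. The labels give no batch.

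Expected counts were rounded and scaled by TMM (edgeR 4.0.16). Genes above 1 CPM in at least 30% of 141 libraries (12127) were fitted in limma-voom (limma 3.58.1, R 4.3.3) on tissue and strain, with Benjamini-Hochberg adjustment (q). Strain entered as the replicate block, since 1 mouse gave all organs of a strain; the median paired correlation of all genes was 0.136 for liver with lung, 0.184 for liver with kidney and 0.153 for lung with kidney. Pooled ratios use summed counts with exact 95% intervals, which cover counting error only, and values of 3 counts or fewer are at the floor. Correlations across strains use rank inverse normal values and 100000 two-sided permutations. The fit was tested on simulated data, where 198 of 198 changed genes were recovered with 0 false calls among 11386 genes in liver against lung. Unchanged genes had the same mean in all organs there, with no strain effect and the same dispersion for all genes. Changes up and down were equal in number, so the simulation cannot show how the scaling moves the real values.

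The genes and lists were chosen with earlier results of these data known. Named were the 8 factors, the 3 genes of each list with the largest called change, the 5 nearest genes of each factor, genes transcribed beside a factor and markers at 0. The CPM filter without TMM, the exact standard errors and the limit on markers of another tissue were settled after results had been seen, and the first versions were kept as alternatives, beside other tools, scalings, pseudocounts and thresholds. A few genes of the lists entered the counts and scores but are not reported here by name.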

Additional observations from a re-analysis of the deposited data

How the results depend on the processing

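The 5, 5 and 6 factors called in liver against lung, liver against kidney and lung against kidney stayed within 1.5 times under each alternative run, and without the replicate block (unpaired) the counts were again 5, 5 and 6. No call of a factor changed without the block, with edgeR's quasi-likelihood test, DESeq2, the covariate, or without strains or libraries. Liver CC033, the highest liver for Pax8, was not among the libraries left out, since the limit on markers of another tissue used CPM without TMM. The sign of small differences followed the scaling. Foxa1 in liver against lung was -1.15 on total counts, -0.92 on total counts without Rn45s and Lars2, -0.0401 with DESeq2, -1.18 on log2(TPM + 1) and -1.26 on log2(TPM + 0.1). Hnf4a in liver against kidney was -0.0222 with DESeq2 size factors, -0.87 on total counts, -0.75 without the 2 genes, -0.0095 with DESeq2, -0.76 on log2(TPM + 1) and -0.93 on log2(TPM + 0.1). Pax8 in liver against lung and Foxa3 in lung against kidney were not tested with 2 organs in the fit, where they failed the filter.

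Of the 3 factors compared between organs across strains, 1 was called in the main setting, 2 on log2 values, 0 on TPM without TMM, where Foxa1 in liver and lung turned to -0.16, and 0 without the 16 libraries high in markers of another tissue. Of 18 relations with markers, 1 was called, against 17 on total counts and 0 without CC032 and CC042, with the covariate, or without libraries over 8 times the median. Total counts moved all genes together, and r turned to 0.67 and 0.62 for Nkx2-1 with club and ciliated markers, 0.80 for Foxa1 with alveolar type 2, 0.63 for Hnf4a with proximal tubule, 0.12 and 0.73 for Pax2 and Pax8 with loop and distal tubule, and 0.66 for Foxa1 with hepatocyte markers. Values of r near 0 also changed sign. Hnf4a with proximal tubule markers was 0.045 on log2 values, 0.097 with the covariate and 0.011 without the 16 libraries, and Hnf4a with cholangiocyte markers -0.063 on log2 values. Foxa1 with alveolar type 2 markers was 0.015 with the covariate, and Pax8 with loop and distal tubule markers 0.030 without CC032 and CC042 and 0.020 without the 16 libraries. All 12 pairs of factors were called on total counts, against 7, but there the median r of all genes with the same factor was 0.15 to 0.73, and most pairs lay below it. In liver, Hnf4a with Foxa3 was 0.50 on total counts and 0.0071 without CC032 and CC042, and Foxa1 with Foxa3 was -0.018 without the 16 libraries. The causes were not tested.

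Values of Foxa2, and of Pax8 outside kidney, rest on a few counts per library. The parts of depth and of the counting in these low values were not tested. With 1 mouse per strain there is no error for a strain.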
